A study of Mus musculus with 2 samples.

Results

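The 41 genes described here encode the working parts of the lysosome: 19 hydrolases and hydrolase cofactors, 8 membrane proteins, 12 subunits of the proton pump, and Tfeb and Mitf, the 2 MiT transcription factors of the set. They were chosen by name as a lysosomal gene set, without a cutoff on a measured value but with earlier results of these data known. All 41 were found among the 55536 annotated genes, and all 41 were detected, which here means 10 or more expected counts in each library.

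The RNA came from mouse macrophages grown from bone marrow of the C57BL/6J strain. The cells had received 100 ng/ml lipid A (the membrane anchor of lipopolysaccharide, sensed by the receptor TLR4) for 12 h. They were then washed and left for 12 h, and given 100 ng/ml lipid A again for 25 min. RNA of the nucleoplasmic fraction (elsewhere in the labels the nuclear fraction) was cleared of ribosomal RNA and sequenced in 2 libraries, library 2 (biological replicate 2) from 1 µg and library 1 (biological replicate 1) from 500 ng of RNA. Both have the same donor entry in the labels, so their spread may be technical. Both libraries carry the same treatment, so no value below is an effect of lipid A, and no test between conditions was possible. RNA of the nucleoplasm is also not a measure of protein or of lysosomes.

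Lysosomes break down proteins, lipids, glycans and nucleic acids with hydrolases that work in an acid lumen. The acid is made by the V-ATPase, a pump whose V1 sector in the cytosol splits ATP and drives proton flow through the V0 sector in the membrane. The MiT factors, which include TFEB, MITF, TFE3 and TFEC, bind E-boxes in many lysosomal promoters. TFEB is held in the cytosol when the kinase mTORC1 is active on the lysosomal surface. In macrophages lysosomes digest phagocytosed material, and loss of many of these genes causes a lysosomal storage disease.

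The libraries held 19588980 expected counts in library 2 and 20196408 in library 1. All 8 macrophage markers looked at were detected, with a median of 148 TPM in library 2 and 173 TPM in library 1. TPM is a read level divided by transcript length and scaled to a fixed total, so it can be compared between genes. None of the 5 melanocyte, 5 neutrophil or 5 lymphocyte markers was detected, and 1 of 5 stromal markers was (Pecam1). Of the 10 osteoclast markers 4 were detected, with summed levels of 46.8 TPM in library 2 and 56.1 TPM in library 1. Nearly all of this was Tnfrsf11a, the RANK receptor, and Nfatc1, while Calcr, Ocstamp, Dcstamp and Oscar were at or near 0. A detected protein-coding gene had a median of 7.82 TPM in library 2 and 9.35 TPM in library 1.

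As a group the 41 genes were abundant. Their median was 58.1 TPM in library 2 and 73.8 TPM in library 1 (65.9 ± 11.1, SD, n = 2), beside 8.59 ± 1.08 TPM over 11383 detected protein-coding genes. Each further list of lysosome-related genes outside the 41, described below, had a lower median than the set. At least 100 TPM in both libraries was reached by 16 of the 41, against 3.42% of detected protein-coding genes. By the kallisto-layout tables it was 15 after scaling to the same protein-coding total, but 3 as deposited. The level of a gene sums all its transcripts, coding or not. By coding transcripts alone, Asah1, Man2b1 and Atp6v1b2 were below 100 TPM in both libraries, and Npc2 in library 1. The share of detected genes was not computed this way. In both libraries, 38 of the 41 lay above the median of detected protein-coding genes. The other 3 were Smpd1, Acp5 and Atp6v0d2. Because the libraries are bulk RNA, fewer cells expressing a gene and less RNA in each cell cannot be told apart.

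**Figure D1:**
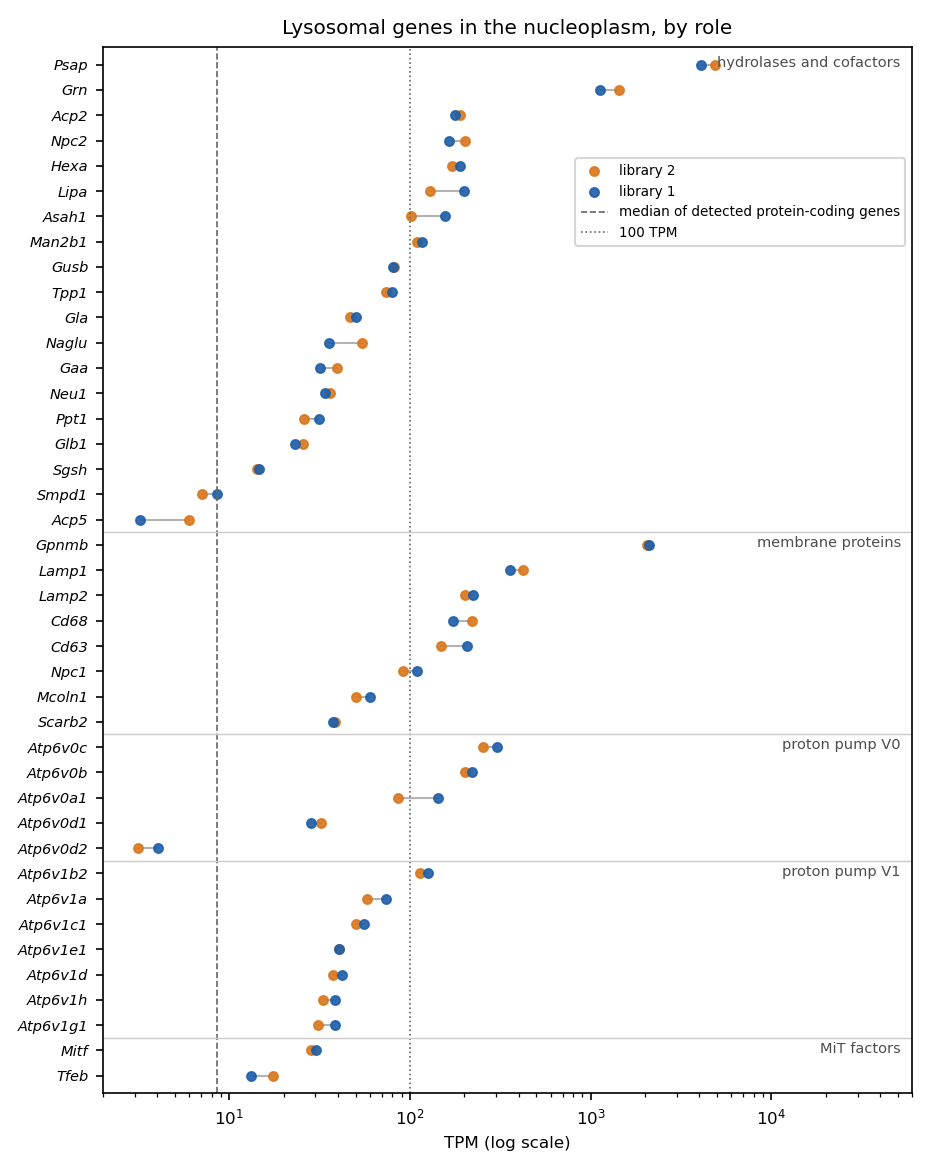
TPM of each of the 41 genes in library 2 and library 1 (points, log axis), ordered by mean level within each role, with a line joining the libraries. The dashed line is the median of detected protein-coding genes and the dotted line is 100 TPM; Psap, Gpnmb and Grn stand above 1000 TPM and only Smpd1, Acp5 and Atp6v0d2 lie below the dashed line in both libraries.

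The most abundant member was Psap, which encodes prosaposin, the precursor of the saposins that help hydrolases reach sphingolipids. Psap had 4855 TPM in library 2 and 4084 TPM in library 1, from 255703 and 193396 expected counts. Its share of the library was 1.31% in library 2, with a 95% Wilson interval of 1.30 to 1.31%, and 0.958% in library 1, with an interval of 0.953 to 0.962%. These intervals cover counting error only, and the libraries differed by more than that. Among protein-coding genes Psap ranked 4 by TPM in library 2 and 8 in library 1. Its RNA was split almost evenly between a pair of coding transcripts. Psap-203, with 1653 coding bases, had 2387 TPM in library 2 and 2107 TPM in library 1. Psap-202, with 1662 coding bases, had 2323 TPM in library 2 and 1844 TPM in library 1. The other 3 annotated Psap transcripts were each below 100 TPM.

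The second most abundant gene of the hydrolase group was Grn, which encodes progranulin, a protein that traffics to the lysosome with prosaposin. Grn had 1429 TPM in library 2 and 1133 TPM in library 1. Together Psap, Grn and the membrane protein Gpnmb made up 70.5% of the summed TPM of the 41 genes in library 2 and 66.3% in library 1. Sums over the set therefore mostly follow these 3 genes, and medians are used for the groups.

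The hydrolases and cofactors had a median of 74.2 TPM in library 2 and 79.8 TPM in library 1, and 8 of 19 reached 100 TPM in both. Next after Psap and Grn by mean came Acp2, Npc2, Hexa and Lipa, whose levels could not be ordered within their spread. Acp2, a lysosomal acid phosphatase, averaged 184 ± 8.20 TPM (SD, n = 2). Npc2, which carries cholesterol within the lumen, averaged 184 ± 25.5 TPM. Hexa, the alpha subunit of beta-hexosaminidase, averaged 180 ± 13.7 TPM. Lipa, which hydrolyses cholesteryl esters and triglycerides, had 129 TPM in library 2 and 199 TPM in library 1. Asah1, acid ceramidase, had 102 TPM in library 2 and 156 TPM in library 1. Man2b1, an alpha-mannosidase, was closer between libraries, at 110 TPM in library 2 and 116 TPM in library 1.

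Below 100 TPM the hydrolases fell in a steady range. Gusb, beta-glucuronidase, had 82.1 TPM in library 2 and 80.9 TPM in library 1, and Tpp1, a tripeptidyl peptidase, 74.2 TPM in library 2 and 79.8 TPM in library 1. Gla, alpha-galactosidase A, averaged 48.3 ± 2.65 TPM, Naglu, which acts on heparan sulfate, 44.9 ± 13.3 TPM, and Gaa, which degrades glycogen, 35.6 ± 5.60 TPM (SD, n = 2 each). Neu1, a sialidase, averaged 35.0 ± 1.46 TPM, Ppt1, a palmitoyl-protein thioesterase, 28.6 ± 3.82 TPM, and Glb1, beta-galactosidase, 24.4 ± 1.71 TPM. Sgsh, which removes sulfate from heparan sulfate, had 14.2 TPM in library 2 and 14.6 TPM in library 1.

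Several members overlap other annotated genes, among them Ppt1 and Glb1. Cap1 lies on the opposite strand of Ppt1 with 2641 expected counts in library 2 and 2666 in library 1, more than the 1165 and 1294 of Ppt1. The strand setting of the counting is not given in the sources used here, so reads of the overlap may not be told apart. Tmppe overlaps Glb1 on the same strand, with 520 counts in library 2 and 451 in library 1 beside 1244 and 1007 for Glb1. Genes that overlap other members had fewer counts than the member. Rmc1, on the opposite strand of Npc1, had 750 counts in library 2 and 828 in library 1, beside 7631 and 7605 for Npc1.

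The lowest hydrolases were Smpd1 and Acp5. Smpd1, acid sphingomyelinase, had 7.04 TPM in library 2 and 8.57 TPM in library 1. Acp5, the tartrate-resistant phosphatase used as a stain for osteoclasts, had 5.98 TPM in library 2 and 3.21 TPM in library 1, from 152 and 73 counts. The other classic osteoclast gene Ctsk, cathepsin K, had 22 counts in library 2 and 17 in library 1.

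The 16 further hydrolases and activators outside the 41 were all detected but lower, with a median of 23.4 TPM in library 2 and 27.4 TPM in library 1. Pla2g15, a lysosomal phospholipase and one of the highest of them, had 66.8 TPM in library 2 and 62.6 TPM in library 1.

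The membrane proteins were the group with the highest median, 175 TPM in library 2 and 191 TPM in library 1, and 5 of 8 reached 100 TPM in both libraries. Gpnmb, a glycoprotein of lysosomes and melanosomes, had 2040 TPM in library 2 and 2101 TPM in library 1. It ranked 9 and 12 among protein-coding genes by TPM in the same order of libraries. The melanocyte markers Dct, Tyr, Tyrp1, Pmel and Mlana were all below 0.5 TPM beside it. Lamp1, a main glycoprotein of the lysosomal membrane, had 424 TPM in library 2 and 356 TPM in library 1.

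Lamp2, which also takes part in chaperone-mediated autophagy, had 202 TPM in library 2 and 223 TPM in library 1. It was below Lamp1 in both libraries, with a log2 ratio of Lamp2 over Lamp1 of -0.87 ± 0.28 (SD, n = 2, pseudocount 1). Cd68, the macrophage antigen macrosialin, had 221 TPM in library 2 and 174 TPM in library 1. Cd63, a tetraspanin of late endosomes, had 149 TPM in library 2 and 208 TPM in library 1.

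The other 3 membrane proteins were lower. Npc1, which exports cholesterol from the lysosome, lay at the level limit, with 91.1 TPM in library 2 and 110 TPM in library 1. Mcoln1, the calcium channel TRPML1, averaged 55.4 ± 7.06 TPM and Scarb2, a receptor that sorts to the lysosome independently of the mannose 6-phosphate tag, 37.8 ± 0.728 TPM (SD, n = 2). Of 14 further membrane proteins, 13 were detected, with a median of 16.9 TPM in library 2 and 21.7 TPM in library 1. The highest were Laptm5 with 241 TPM in library 2 and 228 in library 1, the chloride-proton exchanger Clcn7 with 144 and 124 TPM, and Cln3, a protein lost in a childhood storage disease, with 74.6 and 79.2 TPM.

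Lamp2 makes 3 proteins that differ in their cytosolic tail, because each coding transcript ends with its own last exon on chromosome X (minus strand, GRCm38). The last 30 coding bases are shown because they tell the isoforms apart; capitals mark the stop codon. They were read from GENCODE M21 transcripts.
Lamp2-202: aagacctatgctggatatcagactctgTAA
Lamp2-201: cgccatcatactggatatgagcaatttTAG
Lamp2-203: aaaagtcgtactggttatcagtctgtcTAA
These are the tails known as LAMP2B (Lamp2-202), LAMP2A (Lamp2-201, the isoform of chaperone-mediated autophagy) and LAMP2C (Lamp2-203). The B isoform led with 105 TPM in library 2 and 104 TPM in library 1. The A isoform had 57.0 TPM in library 2 and 68.2 TPM in library 1. The C isoform had 4.59 TPM in library 2 and 3.15 TPM in library 1. The order B, A, C held in both libraries and in the kallisto-layout tables, with 14.8, 9.67 and 0.974 TPM in library 2 and 58.2, 41.7 and 3.41 TPM in library 1. The unique last coding exons are at chrX:38421715-38421851 (B), chrX:38405435-38405571 (A) and chrX:38402142-38402281 (C). A processed transcript, Lamp2-205, and a retained-intron transcript, Lamp2-204, made up most of the rest, with 21.9 and 13.2 TPM in library 2 and 27.5 and 19.5 TPM in library 1.

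By its median the proton pump was lower than the 19 hydrolases and cofactors of the set, although its V0 sector was not. The order depends on which hydrolases are listed. The 16 further hydrolases and activators had a median below that of the pump, 23.4 TPM in library 2 and 27.4 TPM in library 1. The 12 subunits had a median of 45.3 TPM in library 2 and 48.9 TPM in library 1. The V0 subunits had a median of 85.9 TPM in library 2 and 142 TPM in library 1, and the V1 subunits 40.6 and 42.0 TPM. On the log2(TPM + 1) scale the pump median minus the hydrolase median was -0.71 ± 0.003 (SD, n = 2). Among the 5 V0 subunits of the set, the proteolipids that form the rotating ring were highest. Atp6v0c had 254 TPM in library 2 and 304 TPM in library 1, and Atp6v0b 202 and 222 TPM. Pseudogene Atp6v0c-ps2, which could share reads with Atp6v0c, had 14 counts in library 2 and 5.13 in library 1.

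Of the paired d subunits, which link the ring to the central stalk, the widely expressed Atp6v0d1 led. Atp6v0d2, known from osteoclasts and some macrophages, had 3.14 TPM in library 2 and 4.04 TPM in library 1, against 32.3 TPM in library 2 and 28.2 TPM in library 1 for Atp6v0d1. The log2 ratio of Atp6v0d2 over Atp6v0d1 was -2.77 ± 0.33 (SD, n = 2). Without the pseudocount, Atp6v0d1 was 10.3-fold above Atp6v0d2 in library 2 and 6.98-fold in library 1.

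The a subunits carry the proton path and differ by membrane. Atp6v0a1 had 85.9 TPM in library 2 and 142 TPM in library 1, so it passed 100 TPM in library 1 only. Tcirg1, the a3 subunit of lysosomes and osteoclasts and not one of the 41, had 684 TPM in library 2 and 405 TPM in library 1. It was the highest pump gene measured. The log2 ratio of Tcirg1 over Atp6v0a1 was 2.24 ± 1.04, so the direction held in both libraries but the size did not. Coding transcripts held 47.1% of Atp6v0a1 TPM in library 2 and 45.6% in library 1, but 66.2% and 66.9% of its expected counts. Atp6v0a1-202 (2496 coding bases) had 38.7 TPM in library 2 and 62.2 TPM in library 1. The processed transcripts Atp6v0a1-208 and Atp6v0a1-209 had 28.1 and 13.8 TPM in library 2 and 48.6 and 21.02 TPM in library 1.

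In the cytosolic sector V1, 6 of 7 subunits lay at 31.1 to 58.1 TPM in library 2 and 38.3 to 73.8 TPM in library 1. These levels sum all transcripts of a gene. By coding transcripts alone the same 6 spread wider. They ran from 11.8 TPM (Atp6v1d) to 51.4 TPM (Atp6v1a) in library 2, and from 12.4 TPM (Atp6v1h) to 68.1 TPM (Atp6v1a) in library 1. Atp6v1b2, the B subunit that forms the ATP-splitting head with the A subunit, was above these 6. Over all transcripts it had 114 TPM in library 2 and 126 TPM in library 1. Atp6v1a, the catalytic A subunit, had 58.1 TPM in library 2 and 73.8 TPM in library 1. Atp6v1c1, which joins the head to the membrane sector, averaged 52.8 ± 4.02 TPM, Atp6v1e1, of the outer stalks, 40.6 ± 0.141 TPM, and Atp6v1d, of the central stalk, 39.8 ± 3.15 TPM (SD, n = 2 each). Atp6v1h, a regulator of the head, averaged 35.7 ± 3.66 TPM and Atp6v1g1, of the outer stalks, 34.9 ± 5.35 TPM.

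The 13 further pump genes divided sharply. After Tcirg1, the accessory proteins Atp6ap1 and Atp6ap2 were highest, at 123 and 66.0 TPM in library 2 and 206 and 84.3 TPM in library 1. Atp6v0a4, Atp6v0e2, Atp6v1e2 and Atp6v1g3, paralogs best known from kidney, brain or testis, were listed at 0 in both libraries. A count of 0 allows up to 1.53e-05% of counts in library 2 and 1.49e-05% in library 1 (3 counts of the library). Subunits a, d, e, B, C, E and G each have a paralog pair or family in the mouse. In each of them except subunit a, where Tcirg1 led, the ubiquitous form was the highest.

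**Figure D2:**
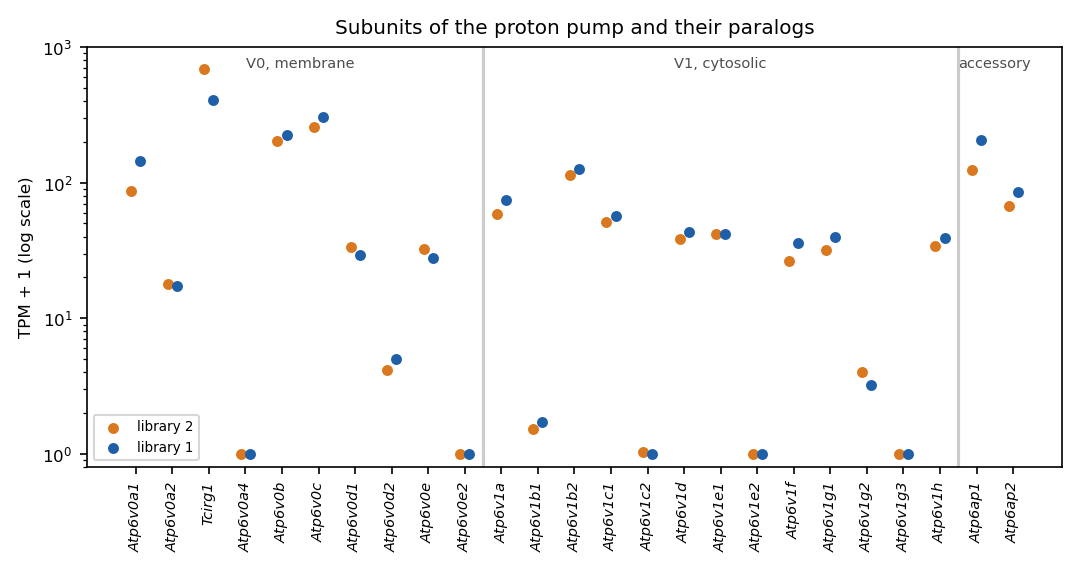
TPM + 1 (log axis) of 12 pump subunits of the set and 13 further pump genes in library 2 (left point) and library 1 (right point), ordered by sector and subunit. Tcirg1 is the highest at 684 and 405 TPM, Atp6v0d2 lies far below Atp6v0d1, and Atp6v0a4, Atp6v0e2, Atp6v1e2 and Atp6v1g3 lie at 0 TPM.

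Both MiT factors of the set were present at modest levels. Mitf had 28.4 TPM in library 2 and 30.2 TPM in library 1. Tfeb had 17.5 TPM in library 2 and 13.2 TPM in library 1. Mitf was the higher in both libraries, with a log2 ratio of Mitf over Tfeb of 0.90 ± 0.33 (SD, n = 2). The kallisto-layout tables did not keep this order in library 2, where Mitf had 6.45 TPM and Tfeb 6.55 TPM, against 28.9 and 16.9 TPM in library 1. Tfe3 was higher than both, with 37.3 TPM in library 2 and 43.1 TPM in library 1, while Tfec, best known from myeloid cells, differed most between libraries, at 18.5 and 37.1 TPM. All 4 family members were therefore measured within one range of 13.2 to 43.1 TPM.

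Most Mitf RNA was assigned to transcripts with the upstream start. Mitf-202, a long form of 1578 coding bases that starts at chr6:97807058 (plus strand, GRCm38), had 14.8 TPM in library 2 and 19.6 TPM in library 1. Mitf-201, which starts downstream at chr6:97991792, had 0.440 TPM in library 2 and was listed at 0 in library 1. The retained-intron transcript Mitf-206, which shares its start with Mitf-202, had 10.8 TPM in library 2 and 9.43 TPM in library 1. Mitf-207, another long form, had 1.77 TPM in library 2 and 0.130 TPM in library 1. Tfeb was spread over several forms. Tfeb-212 (1002 coding bases) had 4.67 TPM in library 2 and 5.11 TPM in library 1, and Tfeb-202 (1425 coding bases) 4.31 and 3.09 TPM. Tfeb-203, Tfeb-204, Tfeb-206, Tfeb-201 and the retained-intron form Tfeb-210 each passed 1 TPM in at least 1 library.

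Genes that act on MiT factors at the lysosome were all detected, 16 of 16, with a median of 18.4 TPM in library 2 and 21.2 TPM in library 1. Fnip2, a partner of folliculin, was far above the rest at 227 TPM in library 2 and 225 TPM in library 1. Rragc, a GTPase that docks TFEB and mTORC1, had 55.5 and 56.4 TPM, and Fnip1 41.7 and 57.5 TPM. All 6 genes of hydrolase sorting were also detected. M6pr, the cation-dependent mannose 6-phosphate receptor, led with 80.2 TPM in library 2 and 115 TPM in library 1. Gnptab, which starts the mannose 6-phosphate tag, had 27.8 and 33.6 TPM, and the large receptor Igf2r 23.9 and 30.8 TPM.

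E-boxes were looked for in RefSeq promoter windows (GRCm38.p6, 250 bases before to 50 after a start site), which cover 34 of the 41 genes. The letters CACGTG read the same on both strands. They were found for 10 of the 34 (29.4%), against 12.1% of 9008 detected protein-coding genes and 8.09% of all 27025 genes with a window. The 8-letter form TCACGTGA, which contains CACGTG, was found for 4 (Atp6v0d1, Atp6v1a, Gla and Mcoln1), against 2.29% of detected protein-coding genes. The M-box TCATGTG, searched on both strands, was found for 7 (Acp5, Atp6v0c, Gla, Grn, Ppt1, Scarb2 and Tpp1), or 20.6%, against 2.69%. A match is a description of letters, not a site that was measured to be bound. No match says only that these letters are not in the window.

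The stretches upstream of the start of 5 genes are shown because they hold the E-boxes of a main membrane protein, a ring subunit and 3 hydrolases; capitals mark CACGTG, and each reads 5′ to 3′ on the strand of its gene.
Lamp1 (chr8:13159080-13159160, plus): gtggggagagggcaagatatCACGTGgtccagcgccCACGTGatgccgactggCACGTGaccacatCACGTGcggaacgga
Atp6v0b (chr4:117887330-117887385, minus): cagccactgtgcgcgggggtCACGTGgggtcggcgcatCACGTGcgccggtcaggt
Gla (chrX:134601174-134601252, minus): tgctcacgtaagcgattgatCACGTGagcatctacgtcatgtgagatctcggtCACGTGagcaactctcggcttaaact
Gaa (chr11:119267803-119267848, plus): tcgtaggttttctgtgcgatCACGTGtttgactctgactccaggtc
Glb1 (chr9:114401010-114401055, plus): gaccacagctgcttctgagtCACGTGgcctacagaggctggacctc
Lamp1 held 4 copies, the first bases of which lay 61, 45, 28 and 15 bases before the start. Atp6v0b, Gla and Mcoln1 held 2 copies each, and the other 6 genes 1. All copies in the 10 genes began before the start site.

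**Figure D3:**
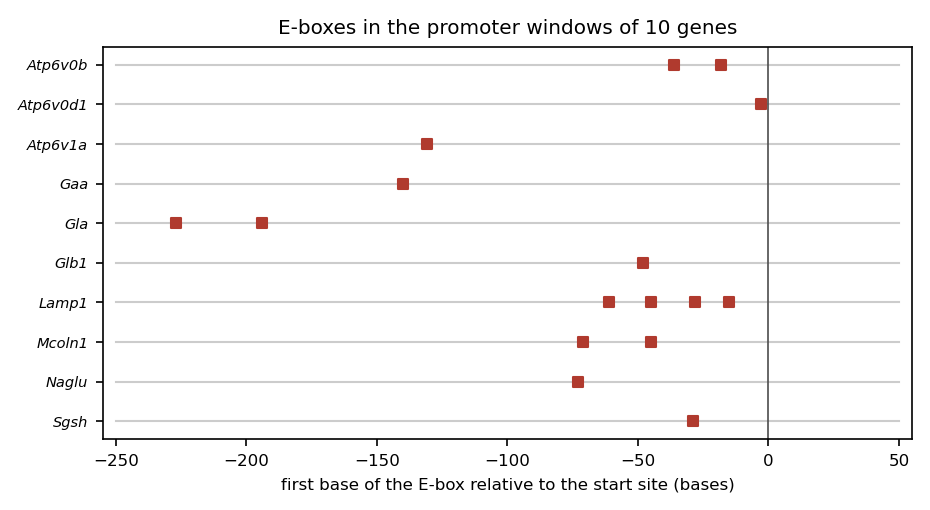
Position of each CACGTG (square, first base, in bases from the RefSeq start site) in the promoter windows of the 10 genes that hold one; the grey line is the window. Lamp1 has 4 copies within 61 bases of the start and Gla has its 2 copies farthest away.

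The genes with an E-box were not the more abundant ones. The 10 genes with one had a median of 48.4 TPM in library 2 and 42.8 TPM in library 1, and the 24 with a window and none had 98.0 TPM in library 2 and 129 TPM in library 1. Lamp1 was the highest of those with an E-box, while Psap, Gpnmb and Grn had none in their windows.

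Reads of nuclear RNA also fall on transcripts annotated as retained introns, which carry intron sequence. Of the 41 genes, 27 have at least 1 such transcript. A retained-intron share of at least 20% of the isoform TPM in both libraries was found for 12 of the 27, against 51.5% of 6848 detected protein-coding genes with such a transcript. By expected counts, which are not divided by length, it was 10 of 27, against 36.1%. Both counts lie near their backgrounds and are not read as a property of lysosomal genes. The median share was 21.5% in library 2 and 19.8% in library 1, beside 26.0% and 24.9% over all such genes.

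Reads of unspliced precursor RNA over an annotated retained intron are counted on that transcript, and an intron that no annotated transcript retains is not counted at all. The shares are therefore values of the annotation as much as of the RNA, and Psap, Hexa, Gla, Cd68, Naglu and 9 other members, with no such transcript, have none by construction.

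The members differed widely among themselves. Atp6v1d had the highest mean share, 59.3% in library 2 and 68.3% in library 1, but by expected counts its shares were 22.4% and 25.7%. Its retained-intron transcripts are 775 and 634 bases long, and a short transcript gains TPM per read. Neu1 held 53.1% in library 2 and 49.0% in library 1, and its shares by counts were 63.0% and 59.2%. Atp6v1h held 45.7% in library 2 and 67.6% in library 1. Among the pump subunits with such a transcript, 5 of 8 were past 20% in both libraries, near the background of 51.5%. At the other end Cd63, Smpd1, Lamp1, Scarb2, Lipa, Lamp2 and the pump subunit Atp6v0d1 stayed below 10% in both.

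Some shares differed strongly between the libraries. Asah1 had 21.5% in library 2 and 53.4% in library 1, through transcript Asah1-203, with 877 counts in library 2 and 3102 in library 1. Atp6v0b had 30.9% in library 2 and 52.2% in library 1. Over the 27 genes, 14 had the higher share in library 2 and 13 in library 1. By expected counts Asah1, Mitf and Atp6v1b2 were below 20% in at least 1 library, and Atp6v1c1 was above it in both.

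**Figure D4:**
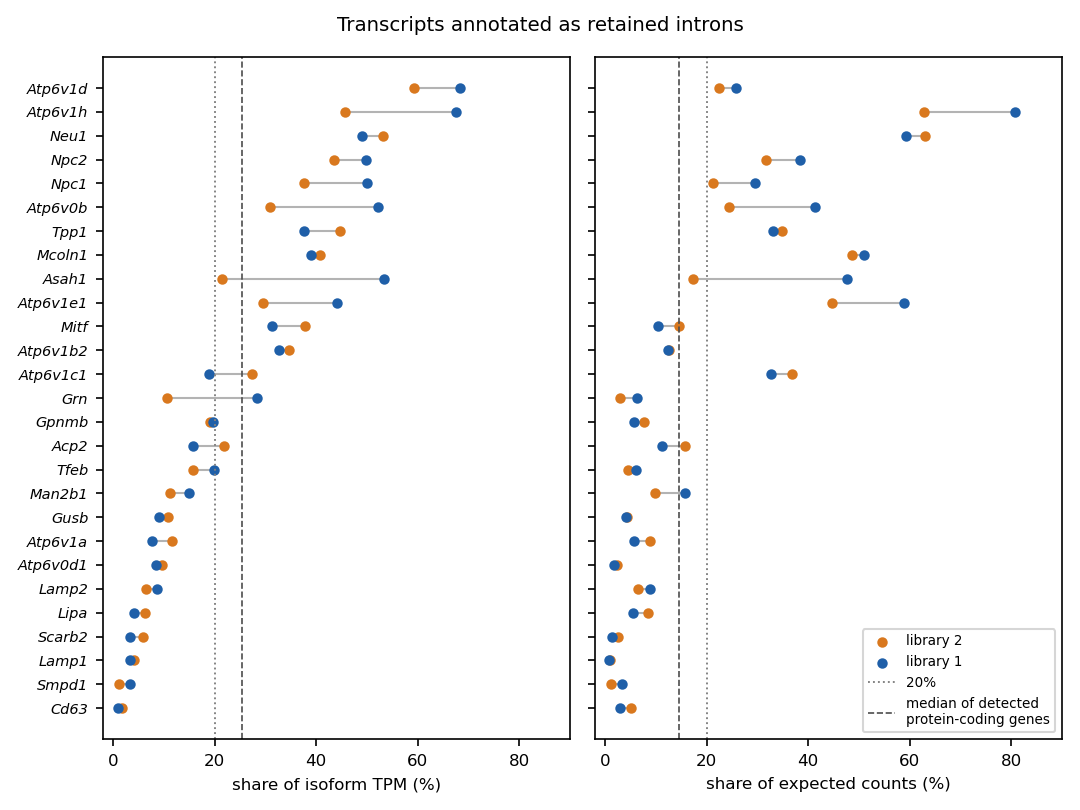
Share of each gene's signal on transcripts annotated as retained introns, by isoform TPM (left) and by expected counts (right), in library 2 and library 1, for the 27 genes with such a transcript. Dotted lines mark 20% and dashed lines the median over detected protein-coding genes; Atp6v1d is the highest by TPM but not by counts, and Neu1 and Atp6v1h are high by both.

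In 8 of the 12 genes past 20%, a retained-intron transcript holds at least 1 whole intron of the leading coding transcript. Over all members there were 37 such introns in 16 genes, with a median length of 232 bases, and all 37 began with GT and ended with AG. Both ends of 3 long ones inside the coding region are shown, with the intron's first and last 2 bases in capitals, because the transcript that holds each took many of its gene's reads.
Neu1 intron 3, 5′ end: ggcattcagGTttcaccctgtgga
Neu1 intron 3, 3′ end: cacttcctcttcttaacAGaaacagc
Tpp1 intron 3, 5′ end: ctcaatatgGTgcctatcagttgg
Tpp1 intron 3, 3′ end: ctcttctgaatccctgcAGgaaagta
Atp6v1h intron 4, 5′ end: atgctgcagGTgagtgtgatatac
Atp6v1h intron 4, 3′ end: gtgcttggttttcttttAGgaaaatc
Neu1 intron 3 is at chr17:34932829-34934002 (plus strand, 1174 bases, GRCm38) and is held by Neu1-202, with 1432 counts in library 2 and 1126 in library 1, or 19.2 and 16.7 TPM. The coding Neu1-201 had 16.9 TPM in library 2 and 17.3 TPM in library 1, so Neu1-202 was the higher by TPM in library 2 only. Tpp1 intron 3 is at chr7:105750331-105751589 (minus strand, 1259 bases) and is held by Tpp1-206, with 1381 counts in library 2 and 1547 in library 1, or 18.1 and 22.5 TPM. Atp6v1h intron 4 is at chr1:5093453-5095614 (plus strand, 2162 bases) and is held by Atp6v1h-206, with 617 counts in library 2 and 1109 in library 1, or 6.11 and 12.1 TPM.

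In the other 4 of the 12 genes (Atp6v1d, Atp6v1e1, Npc2 and Mitf) the retained-intron transcripts hold no whole intron of the leading coding transcript. Npc2-203 was such a transcript and had 64.7 TPM in library 2 and 64.8 TPM in library 1, beside 114 and 83.1 TPM for the coding Npc2-201. By mean TPM over the libraries, a retained-intron transcript was the leading one for 3 genes, Neu1, Atp6v1d and Atp6v0b, and a coding transcript for the other 38. Of these 3 only Atp6v1d had it leading by TPM in both libraries, with 14.4 TPM in library 2 and 23.4 TPM in library 1 for Atp6v1d-202. By expected counts its coding transcript Atp6v1d-201 led, with 891 counts in library 2 and 869 in library 1, against 184 and 257 for Atp6v1d-202. For Neu1 the retained-intron transcript Neu1-202 led by expected counts in both libraries, with 1432 in library 2 and 1126 in library 1. Coding transcripts held 37.0% and 40.8% of Neu1 counts. Atp6v0b-204 had 50.7 TPM in library 2 and 107 TPM in library 1, beside 70.1 and 67.7 TPM for the coding Atp6v0b-201.

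Transcripts annotated for nonsense-mediated decay were also measured in a few genes. In Gusb they held 38.0% of isoform TPM in library 2 and 14.9% in library 1, and 38.2% and 13.9% of expected counts. In Man2b1 they held 10.7% in library 2 and 27.6% in library 1, and in Sgsh 11.9% and 29.2%. By expected counts the shares were 2.18% in library 2 and 6.09% in library 1 for Man2b1, and 11.5% and 28.4% for Sgsh. None of these shares was stable between the libraries.

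After TMM scaling of the expected counts, 1 of the 41 genes was past 2-fold between the libraries, against 7.82% of 14596 detected genes. Those detected genes had a median of 5.79 TPM in library 2 and 6.99 TPM in library 1, far below the set. The 2 shares are therefore not a like comparison, and the count is not read as a property of lysosomal genes. The gene past 2-fold was Acp5, with a log2 ratio of library 2 over library 1 of 1.20 on 152 and 73 counts. By TPM this ratio was 0.90 and no gene passed. Next came Naglu at 0.91, Tfeb at 0.75 and Grn at 0.74, and at the low end Atp6v0a1 at -0.38, Lipa at -0.33 and Asah1 at -0.19.

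Most lysosomal genes were slightly higher in library 2: 33 of 41 by this scaling, against 51.3% of detected protein-coding genes, with a median log2 ratio of 0.15 beside 0.01. By TPM, which lowers the median of all detected genes by 0.28 in library 2, the count was 15 of 41, against 29.5%. Relative to the protein-coding median of each scaling, 32 of 41 were above it by TMM and 31 of 41 by TPM. By role the median log2 ratio after TMM scaling was 0.35 for hydrolases and cofactors, 0.25 for membrane proteins, 0.12 for V0, 0.03 for V1 and 0.39 for the 2 MiT factors. The libraries differ in starting amount of RNA as well as in replicate, and these cannot be told apart.

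**Figure D5:**
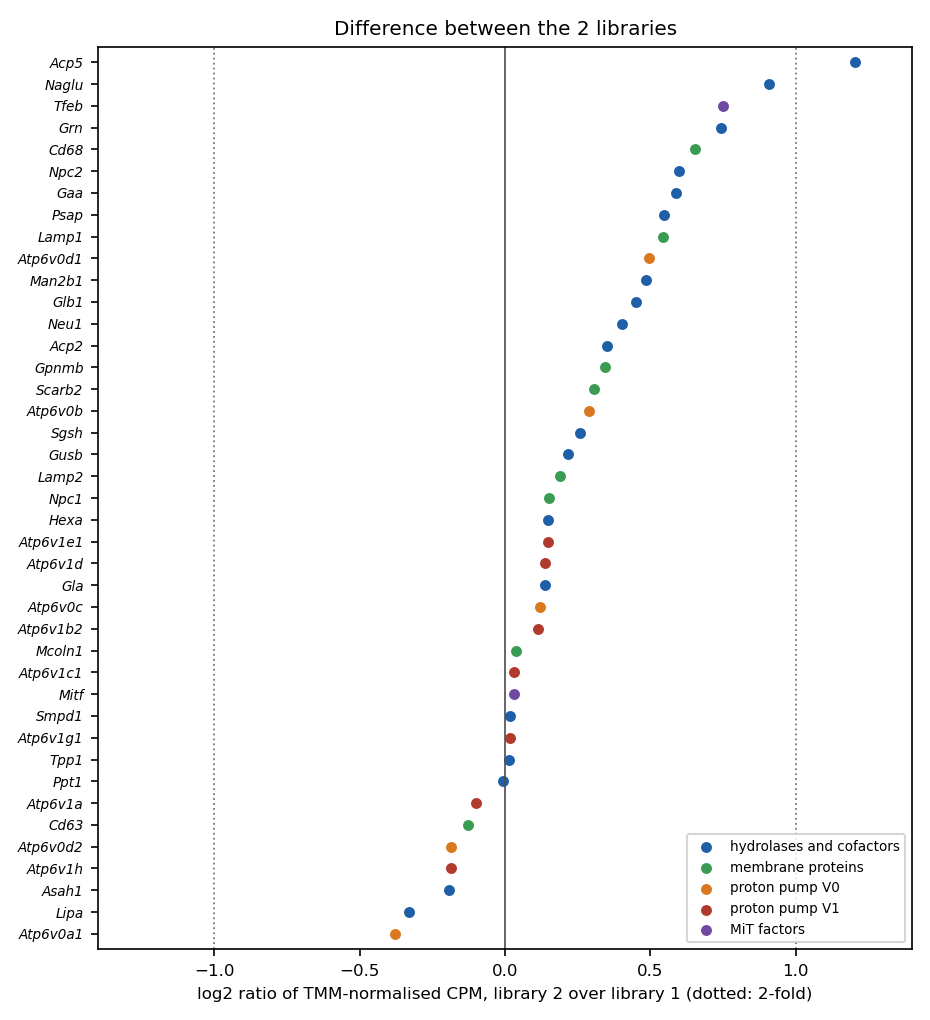
Log2 ratio of TMM-normalised CPM (counts scaled to library size), library 2 over library 1, for each of the 41 genes, coloured by role; dotted lines mark 2-fold. Acp5 at 1.20 is the only gene past 2-fold, and 33 of 41 lie above 0.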

How the data were processed

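Expected counts and TPM per gene and per transcript (RSEM layout) were deposited by the authors, made from transcriptome alignments to mm10 with GENCODE M21, per the deposited file notes. A further deposited table per library (kallisto layout) gives each transcript an estimated count and a TPM, derived directly from the read files. Program, version and strand setting: not given in the sources used here. Also in the gene tables the authors deposited is a posterior mean TPM, used as an alternative.

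The 41 symbols were matched to gene identifiers by name in the annotation. Members, groups and further lists were chosen with earlier results of these data known. A gene is called detected at 10 or more expected counts in both libraries. Named were all members, and of each further list the 3 highest by mean TPM and any at 0; some genes that this rule names are not reported here; other markers and transcripts named were chosen after their values were seen. Values are given per library, with mean and SD of 2 libraries where averaged; no test was run. For the ratio between libraries, expected counts were scaled by TMM (edgeR 4.0.16, R 4.3.3). Size factors of DESeq2 1.42.0, from counts rounded to whole numbers, were an alternative. The TMM scaling was tested on simulated data. Retained-intron shares use the GENCODE transcript type. Promoter windows come from RefSeq (GRCm38.p6) and intron ends and tails from GENCODE M21 transcripts. Python 3.11.15 with pandas 2.3.3 and numpy 2.4.6 did the rest. The limit given for a count of 0 covers counting error only. Posterior, kallisto-layout, pseudocount, filter and single-library alternatives were tried.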

Additional observations from a re-analysis of the deposited data

How the results depend on the processing

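The count of genes at 100 TPM in both libraries was 16. It was 15 by posterior mean TPM and 15 by kallisto-layout TPM scaled to the same protein-coding total, but 3 by kallisto-layout TPM as deposited. The median fell with it, to 28.7 TPM as deposited, against 65.9 TPM, and was 60.6 TPM after scaling. As deposited, every member was lower in library 2 than in library 1. Psap had 710 TPM in library 2 and 2346 TPM in library 1, and Lamp1 61.9 and 203 TPM. The cause was not tested. Leaving out each library in turn gave counts of 16 to 18 and medians of 58.1 to 73.8 TPM. These counts could not fall below 16, because only the library left had to pass. The Atp6v0d2 over Atp6v0d1 ratio stayed within its spread in every alternative run, from -3.05 to -2.45.

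The pump minus hydrolase difference has a very small spread, so small shifts exceed it: it was -0.71 by posterior mean TPM and -0.72 with a pseudocount of 0.1. By kallisto-layout TPM it was -0.47 as deposited and -0.49 scaled. It stayed negative in all alternatives, which all used the pump subunits and hydrolases of the set.

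The number of genes past 2-fold between libraries was 0 by TPM, 0 with an expected count of at least 100, and 2 by kallisto-layout estimated counts (Acp5 and Naglu). The retained-intron count was 10 to 18 in its alternatives, which include a 10% threshold and single libraries, both looser by construction. The 8-letter E-box left 4 genes, by its construction.

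Of the 41 single levels, 36 moved by less than their spread under posterior mean TPM, 18 under scaled kallisto-layout TPM and 1 as deposited. After scaling, 1 (Tfeb) moved by over 1.5 times, to 1.88 times its level.

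No paired analysis was possible because there is 1 group. Having 2 libraries of 1 group limits every spread, and Acp5, Atp6v0d2 and Smpd1 rest on few counts.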
